A study of Mus musculus with 10 samples.

Results

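Named long non-coding RNA (lncRNA) genes were followed over the first hours of SOX2 loss in mouse embryonic stem cells (mESC). A transcription unit (TU) annotated to a single gene was taken when its symbol was Platr, Snhg, Mir...hg or Linc with its number, or ended in os, the mark of a transcript on the strand opposite a partner gene. Of 134 such symbols, 120 had more than 10 fragments in at least 2 of 10 libraries and were tested, out of 28459 tested TUs and 40779 TUs in all. The os ending also caught 19 protein-coding genes, which are named and counted apart below. The other 101 TUs are the named lncRNA genes described here, with 14 Platr, 14 Snhg, 6 Mir host, 1 Linc and 66 os TUs. For 6 of the 101, neither control library was above the filter, so that they were tested through their depleted libraries.

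All 10 libraries came from E14 mESC with SOX2 fused to FKBP (per the study's methods, E14Tg2A, with IB10 named for the SOX2 line), grown in serum-free medium with LIF and inhibitors of MEK and GSK3. The degrader dTAG-13 was given at 500 nM for 0.5, 1, 2 or 6 h (0.5 to 6 hours post depletion, hpd) and DMSO served as the control (NT), with 2 replicates per group. New RNA was labelled with 2 mM 4-thiouridine (4SU) for 10 min, enriched and sequenced (TT_chem-seq), so the values follow transcription and not the RNA pool. All groups carried the tag, no untagged cells given dTAG-13 were analysed here, and the origin of the replicates was not stated, so that p-values measure only the spread between these libraries. Fewer transcribing cells and less transcription per cell cannot be told apart.

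The libraries held 11131490 to 25854106 fragments, of which the 101 lncRNA TUs took 0.344 to 0.467%. All 8 markers of embryonic stem cells were transcribed in NT, from 14.6 counts scaled to library size (CPM) for Utf1 to 1180 CPM for Esrrb. Of 17 markers of other cell types, 6 had no TU, and the other 11 reached at most 15.1 CPM (Tubb3).

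An lncRNA is a long transcript that is not translated into a protein. Platr genes (pluripotency-associated transcripts) were named for their expression in mESC, and Snhg genes carry small nucleolar RNAs (snoRNAs) in their introns. Mir host genes are the precursors of microRNAs (miRNAs), which bind messengers through their seed (bases 2 to 8). SOX2 binds DNA together with OCT4 at enhancers of the pluripotency network.

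The sequences around the starts of the 4 lncRNA TUs that fell after 0.5 h are shown first, because these TUs had the earliest falls. Each run covers 250 bases before and 50 bases after the TU start on GRCm38.p6, the build to which mm10 corresponds. Capitals mark matches, on either strand, to CATTGT (a SOX core), ATGCAAAT (the octamer bound by OCT4) or TTGTNATGC (the middle of a joined SOX and OCT element).
Platr11 (chr9:118406098-118406397, minus strand): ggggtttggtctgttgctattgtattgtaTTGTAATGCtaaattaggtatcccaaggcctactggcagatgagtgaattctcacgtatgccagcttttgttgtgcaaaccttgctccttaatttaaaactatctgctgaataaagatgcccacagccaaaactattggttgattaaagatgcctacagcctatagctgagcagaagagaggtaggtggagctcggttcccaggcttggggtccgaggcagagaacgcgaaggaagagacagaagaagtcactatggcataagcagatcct
Platr10 (chr3:75657218-75657517, minus strand): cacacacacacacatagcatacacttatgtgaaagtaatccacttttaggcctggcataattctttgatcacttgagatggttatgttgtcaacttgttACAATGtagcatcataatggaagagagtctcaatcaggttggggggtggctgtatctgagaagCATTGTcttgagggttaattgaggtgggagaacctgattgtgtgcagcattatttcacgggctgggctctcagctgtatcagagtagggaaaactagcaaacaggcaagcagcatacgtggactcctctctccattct
Platr9 (chr4:34912210-34912509, minus strand): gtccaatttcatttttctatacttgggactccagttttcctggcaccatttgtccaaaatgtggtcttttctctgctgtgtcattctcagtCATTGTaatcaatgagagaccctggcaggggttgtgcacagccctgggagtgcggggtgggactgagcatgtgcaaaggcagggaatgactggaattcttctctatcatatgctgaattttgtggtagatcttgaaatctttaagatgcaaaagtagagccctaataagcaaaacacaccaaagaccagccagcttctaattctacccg
Rsf1os1 (chr7:97647730-97648029, minus strand): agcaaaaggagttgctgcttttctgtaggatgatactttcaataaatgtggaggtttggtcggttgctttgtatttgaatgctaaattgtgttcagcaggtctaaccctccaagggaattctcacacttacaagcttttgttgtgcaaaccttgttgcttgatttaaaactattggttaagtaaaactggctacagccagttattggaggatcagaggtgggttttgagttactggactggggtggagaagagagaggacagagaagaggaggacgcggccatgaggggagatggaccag
TTGTNATGC was found once in the window of Platr11, and in 0.625% of the windows of all tested TUs. CATTGT was found in the windows of Platr10 and Platr9, and in 9.86% of all windows. ATGCAAAT was found in none of these 4 windows and in 2.23% of all windows. Over the 101 lncRNA TUs, 10 windows held CATTGT, 1 held TTGTNATGC and none held ATGCAAAT. The shares depended on the length searched. Over 2000 bases, ATGCAAAT was found in 5 of 14 Platr TUs (Platr9 among them), in 9 of the 101 and in 10.2% of all TUs. TTGTNATGC was found in 7 of the 101 (Platr11 and Rsf1os1 among them) and in 4.16% of all TUs, and CATTGT in 60 of the 101 and 56.8% of all TUs. A match is a description of the letters and not a measured binding site.

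The windows of Platr11 and Rsf1os1 resembled each other. Over 158 aligned bases they were 72.8% identical, although the TUs lie on chromosomes 9 and 7. Only 2 other pairs among the 101 lncRNA TUs had windows with at least 100 aligned bases (Platr27 with Scpep1os, and Platr3 with Ptprtos). The windows of 14 further tested TUs, of which 5 were annotated to a single gene, aligned to that of Platr11 or Rsf1os1. At 1 hpd, 7 of these 14 TUs were called lower (3.61% of all TUs) and none higher, with a median log2 fold change of -1.43. At 6 hpd, 10 were called lower (9.20% of all TUs) and none higher, with a median of -1.95. Among them Gm33006 had the lowest log2 fold change after 1 h, -5.87. Srsf6, which encodes a splicing factor, had a log2 fold change of only -0.25 after 1 h. This set was chosen after the values of Platr11 and Rsf1os1 were seen and was not tested. Some other windows resembled those of more TUs. At 1 hpd, 3.07% of the 326 TUs like Platr27 and 1.68% of the 119 like Snhg1 were called lower. The share was 13.3% of the 105 like Ptprtos. Soft-masked (repeat) bases made up 63.0% of the window of Platr11 and 30.3% of that of Rsf1os1, and a median of 13.0% over all tested TUs. Over the 14 Platr TUs the median was 44.7%, and 7 of them were over 50%. Both called (Platr27, 75.7%) and uncalled Platr TUs (Platr21, 100%) were among these.

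At 0.5 hpd, 4 of the 101 lncRNA TUs were called lower than NT, where 0.787% of all tested TUs were, and 2 were called higher, where 0.527% were. A TU was called at an adjusted p under 0.05 in edgeR's quasi-likelihood test. At 1 hpd, 10 were lower beside 3.61% of all TUs, and 4 were higher beside 2.15%. At 2 hpd, 12 were lower beside 5.57%, and 4 were higher beside 4.26%. At 6 hpd, 22 were lower beside 9.20%, and 5 were higher beside 6.61%. All tested TUs include extragenic and antisense units, whereas the 101 are all annotated to a single gene. Of the 14979 tested TUs with 1 gene, 0.801%, 3.56%, 5.33% and 7.73% were lower at the 4 times. In the same set 0.835%, 3.55%, 6.88% and 10.4% were higher. As shares, 9.90% of the lncRNA TUs were lower after 1 h and 21.8% after 6 h. In the joint test of the 4 time points 22 were called, beside 12.3% of all TUs and 15.3% of tested TUs with 1 gene. Over all 4 times, 23 lncRNA TUs fell at least once (10.4% of all TUs did), 7 rose at least once (8.46%) and 71 were not called (81.2%). The median log2 fold change of the 101 TUs was -0.067, -0.141, -0.127 and -0.123 at 0.5, 1, 2 and 6 hpd, and that of all tested TUs was -0.022, -0.043, -0.040 and -0.036. For tested TUs with 1 gene it was 0.007, 0.024, 0.047 and 0.071. Scaled by total counts, the median of the 101 was -0.231, -0.238 and -0.21 at 1, 2 and 6 hpd. That of all TUs was then -0.131, -0.155 and -0.125. In 20 of the 101, all 8 depleted libraries lay below both NT libraries (8.67% of all TUs did so), and in 6 all lay above (5.91%). The counts that follow leave out single libraries. The share of all TUs called in those fits is not given, so they describe the members alone. Without NT replicate 2, 2, 6 and 10 TUs were called lower at 0.5, 1 and 6 hpd, and 2 and 1 higher at 1 and 2 hpd. Without NT replicate 1, 2 were higher after 1 and after 2 h. Without 1 hpd replicate 1, 6 were lower and 1 higher after 1 h, and without 1 hpd replicate 2, 2 were higher. Without 2 hpd replicate 2, 2 were higher after 2 h. At 0.5 hpd, 1 was higher without 0.5 hpd replicate 2, and 4 without either 2 hpd library. Without 6 hpd replicate 1 or replicate 2, 13 and 10 were lower after 6 h.

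**Figure D1:**
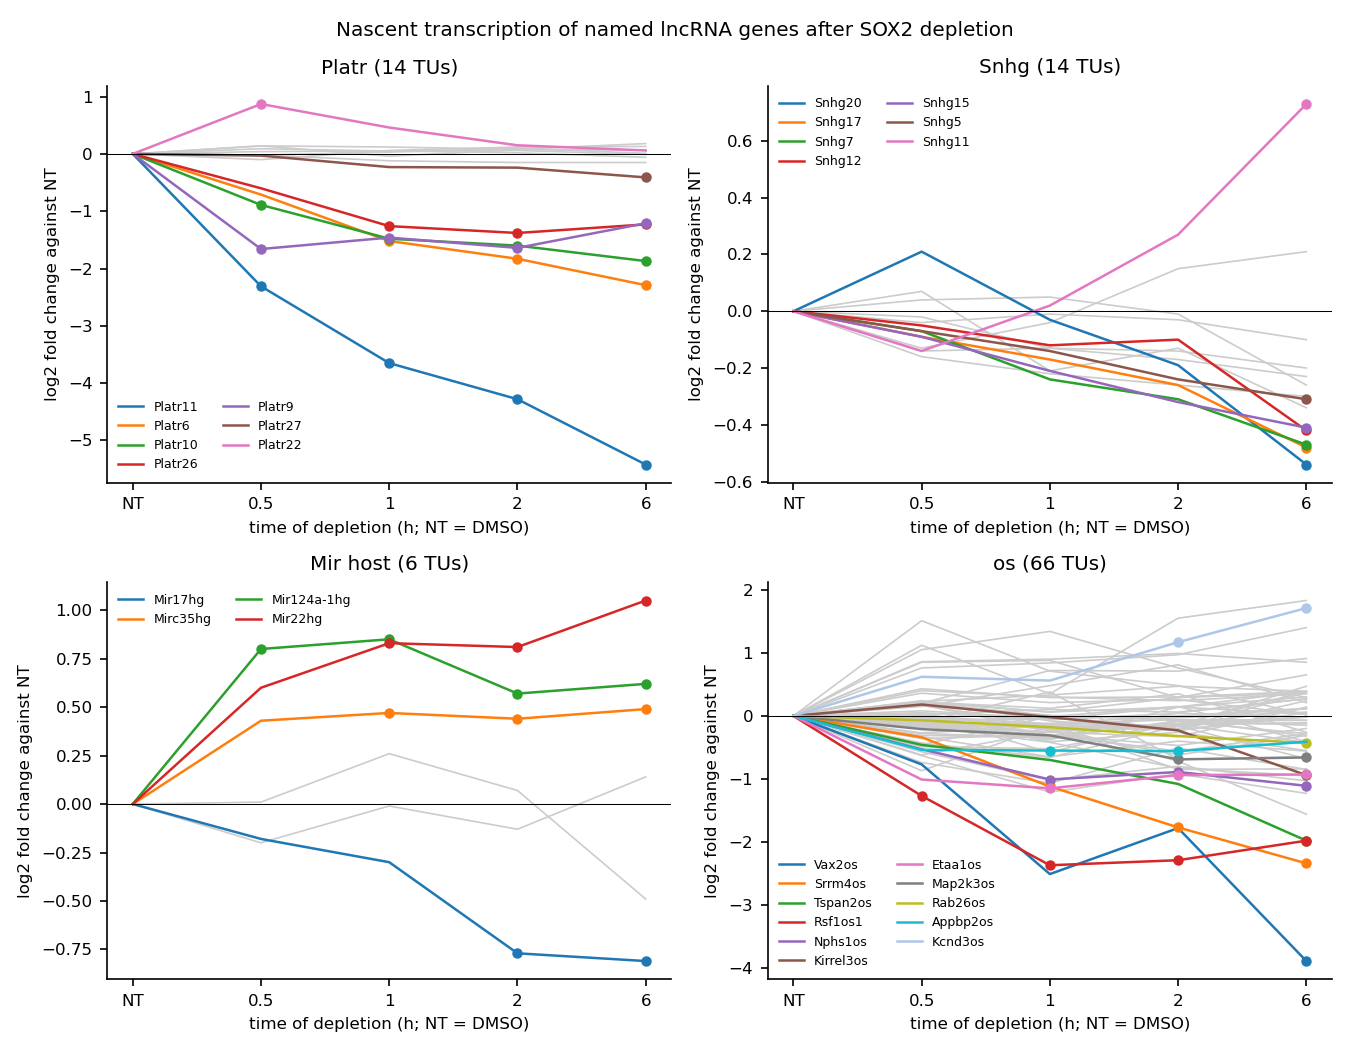
Log2 fold change against NT (y axis) over the time of depletion (x axis, evenly spaced groups) for each lncRNA TU of the Platr, Snhg, Mir host and os groups. Coloured lines are TUs called at 1 time point or more, with a circle at each called time, and grey lines are TUs called at none. Platr11 falls deepest, to -5.42 after 6 h, while the Snhg lines stay between -0.54 and 0.73.

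The times of the calls are given by group. Of all tested TUs, 0.787%, 3.61%, 5.57% and 9.20% were called lower and 0.527%, 2.15%, 4.26% and 6.61% higher at 0.5, 1, 2 and 6 hpd. The shares of tested TUs with 1 gene are given above. Among the 14 Platr TUs, 3, 5, 5 and 6 were called lower (21.4%, 35.7%, 35.7% and 42.9%) and 1 higher after 0.5 h, while the group's median log2 fold change lay between -0.106 and -0.027. With 1 library left out this median went as low as -0.128, -0.197, -0.196 and -0.183 at 0.5, 1, 2 and 6 hpd. Its values nearest 0 were -0.024, -0.061, -0.066 and -0.087. No Snhg TU was called at 0.5, 1 or 2 hpd, and after 6 h 6 of 14 were lower and 1 higher. At 2 hpd 4 Snhg TUs were lower with total counts, 1 with a mean of at least 50 fragments and 1 without 2 hpd replicate 2. Of 6 Mir host TUs, 1, 3, 3 and 3 were higher at the 4 times, and 1 was lower at 2 and 6 hpd. Among the 66 os TUs, 1, 5, 6 and 9 were lower (1.52%, 7.58%, 9.09% and 13.6%), and 1 was higher at 2 and 6 hpd (1.52%). Without NT replicate 2, 1 and 3 Platr TUs were lower at 0.5 and 1 hpd, 3 and 4 os TUs were lower at 1 and 6 hpd, no Snhg TU was lower at 6 hpd, and 2, 1 and 2 Mir host TUs were higher at 1, 2 and 6 hpd. Without NT replicate 1, 3 os TUs were lower at 1 and at 2 hpd, 2 os TUs were higher at 6 hpd and none at 2 hpd, 2 Mir host TUs were higher at each time, and no Platr TU was higher. Without a 6 hpd library, 5 os TUs and 0 or 2 Snhg TUs were lower and 2 Mir host TUs higher at 6 hpd, and without replicate 2 also 4 Platr TUs were lower and 2 os TUs higher. Without a 1 hpd library, 3 os TUs were lower at 1 hpd, and 1 or 2 Mir host TUs higher. Without 1 hpd replicate 1, 3 Platr TUs were lower at 1 hpd. Without 2 hpd replicate 1, 2 os TUs were lower and 2 higher at 2 hpd, and without replicate 2, 7 were lower and none higher. Without 0.5 hpd replicate 1, 2 Platr TUs were lower at 0.5 hpd, and without replicate 2 none was higher. Without either 2 hpd library, 3 Mir host TUs were higher at 0.5 hpd. The share of all TUs called without each library is not given. Differences between the groups were not tested. Sequencing depth differed as well: 37 of 66 os TUs held under 50 fragments per library on average, against 1 of 14 Platr TUs and no Snhg or Mir host TU.

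Levels between genes were compared as CPM per kb of TU in NT. The median was 13.0 for Snhg, 1.56 for Mir host, 1.26 for Platr and 0.211 for os TUs, and 0.777 for all tested TUs with 1 gene. The highest levels per kb were those of Snhg12 (95 ± 0.67, SD, n = 2) and Snhg1 (66.3 ± 3.4). The TU of Snhg12 covered only 33.1% of its annotated transcript, and the order turned with the length of the RefSeq gene, which gave 252 for Snhg1, 222 for Rab26os and 32.0 for Snhg12.

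Platr11 had the lowest log2 fold changes among the lncRNA TUs at all 4 times. It measured 17 and 19.1 CPM in NT, 3.59 and 3.68 after 0.5 h, 1.51 and 1.37 after 1 h, 0.859 and 0.994 after 2 h, and 0.492 and 0.349 after 6 h. Every library lay below all those of the earlier groups. Against NT this was a log2 fold change of -2.31 ± 0.18 (SE) after 0.5 h (adjusted p = 1.9e-05) and -5.42 ± 0.26 after 6 h (adjusted p = 5.9e-09). At 6 hpd only 7 and 6 fragments remained, against 253 and 263 in NT. It was further lower after 1 than after 0.5 h, by -1.33 ± 0.23 (adjusted p = 0.040), and after 6 than after 1 h, by -1.77 ± 0.35 (adjusted p = 0.0074). The TU (chr9:118392979-118406147, minus strand) covered 9.4% of the annotated transcript and began 39778 bases downstream of its annotated start.

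Platr10 was the most transcribed of the falling Platr TUs. It measured 98.7 and 108 CPM in NT, 55.8 and 55.7 after 0.5 h, 32.6 and 41.4 after 1 h, 30.1 and 38.0 after 2 h, and 24.9 and 31.5 after 6 h. No depleted library reached the NT values. On the log2 scale the change from NT was -0.89 ± 0.14 after 0.5 h (adjusted p = 0.0052) and -1.87 ± 0.15 after 6 h (adjusted p = 8.7e-07). Without NT replicate 2, the change after 0.5 h was -0.82 and was not called.

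Platr6 lies on chromosome 10 and fell in every later group. It measured 11 and 14.3 CPM in NT, 7.65 and 7.87 after 0.5 h, 4.14 and 4.67 after 1 h, 3.39 and 3.74 after 2 h, and 2.6 and 2.56 after 6 h. The groups did not overlap. Its log2 change came to -0.71 ± 0.17 after 0.5 h (adjusted p = 0.063, not called), -1.52 ± 0.18 after 1 h (adjusted p = 0.00014) and -2.29 ± 0.20 after 6 h (adjusted p = 2.3e-06).

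Platr26 and Platr9 fell early, and neither was called between 1 and 6 hpd. Platr26 measured 9.22 and 10.7 CPM in NT, 6.05 and 7.18 after 0.5 h, 3.76 and 4.50 after 1 h, 2.93 and 4.73 after 2 h, and 3.79 and 4.66 after 6 h. Its change on the log2 scale was -1.26 ± 0.23 after 1 h (adjusted p = 0.0031) and -1.23 ± 0.23 after 6 h (adjusted p = 0.0018). All depleted libraries lay below NT. Platr9 measured 3.77 and 5.60 CPM in NT, 1.33 and 1.71 after 0.5 h, 1.51 and 1.88 after 1 h, 1.52 and 1.46 after 2 h, and 2.32 and 1.75 after 6 h. Its log2 change came to -1.66 ± 0.29 after 0.5 h (adjusted p = 0.0082) and -1.21 ± 0.28 after 6 h (adjusted p = 0.0079). The Platr26 call after 1 h was lost without NT replicate 2 (-1.13) or 1 hpd replicate 1 (-1.14). The Platr9 calls were lost without NT replicate 2 at 0.5, 1 and 6 hpd (-1.35, -1.13 and -0.88), and each was lost without a library of its own group (0.5 hpd replicate 1, -1.44; 1 hpd replicate 1, -1.31; 6 hpd replicate 2, -1.01).

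**Figure D2:**
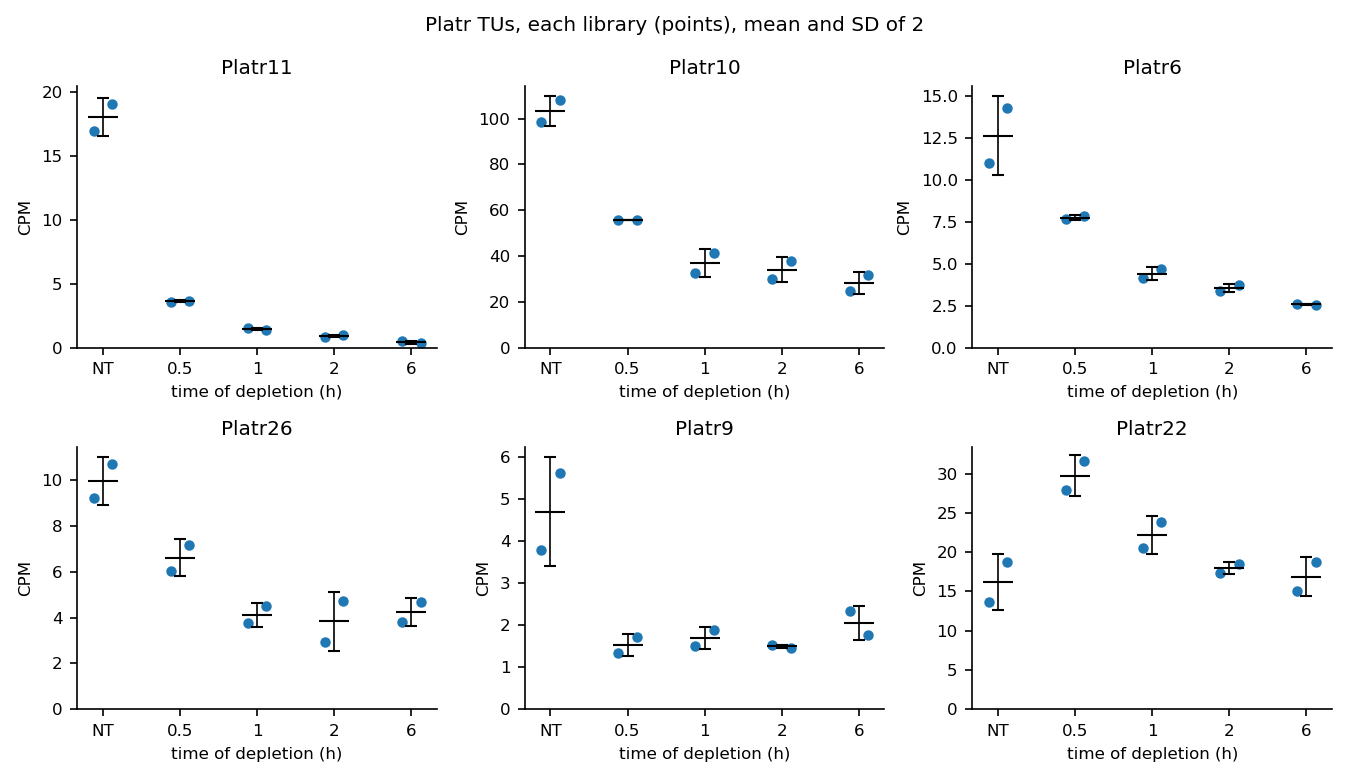
CPM (y axis, from 0) in each of the 2 libraries per group (points), with the group mean and SD (black), for 6 Platr TUs over the time of depletion (x axis). Platr11, Platr10, Platr6, Platr26 and Platr9 lie below NT in every depleted library, and Platr22 peaks after 0.5 h, at 27.9 and 31.6 CPM.

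Platr22 moved the other way and was called at 0.5 hpd alone. It measured 13.7 and 18.7 CPM in NT, 27.9 and 31.6 after 0.5 h, 20.5 and 23.9 after 1 h, 17.4 and 18.5 after 2 h, and 15.1 and 18.7 after 6 h. The 0.5 and 1 hpd libraries lay above NT, and the later ones overlapped it. The log2 fold change was 0.87 ± 0.16 after 0.5 h (adjusted p = 0.012) and 0.46 ± 0.16 after 1 h (adjusted p = 0.13, not called). None of the tests between successive times, or between 6 and 1 h, passed: it differed by -0.42 ± 0.15 between 1 and 0.5 h (adjusted p = 0.73) and by -0.39 ± 0.16 between 6 and 1 h (adjusted p = 0.19). The call after 0.5 h was lost as a call without NT replicate 1 (0.66) or 0.5 hpd replicate 2 (0.80). The TU begins 10 bases after the end of the Gm41958 TU on the same strand, whose log2 fold change after 0.5 h was 0.15 ± 0.21 (adjusted p = 0.92).

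Platr27 was called after 6 h alone. It measured 40.0 and 35.2 CPM in NT, 32.5 and 31.7 after 1 h, 31.6 and 32.1 after 2 h, and 28.4 and 28.1 after 6 h, so that the later 3 groups all lay below NT. At 6 hpd the test gave the call (log2 fold change -0.41 ± 0.11, adjusted p = 0.018). Its call was lost without either 6 hpd library (-0.41 and -0.40) or the first NT library (-0.30), and in DESeq2 (-0.38). The Platr TUs with the highest levels per kb were not called. Platr3, at 6.37 ± 0.30 CPM per kb in NT, had a log2 fold change of -0.15 ± 0.12 after 6 h (adjusted p = 0.43). Platr4, at 5.14 ± 0.94, had -0.01 ± 0.15 (adjusted p = 0.98). The other 5 Platr TUs (Platr14, Platr7, Platr20, Platr25 and Platr21) had log2 fold changes between -0.10 and 0.18 at all 4 times.

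Most Snhg TUs had a log2 fold change below 0. Of the 14, 11, 12, 12 and 12 did at 0.5, 1, 2 and 6 hpd. Of all 28459 tested TUs, 15206, 15630, 15331 and 15090 did. The Snhg median went from -0.067 to -0.131, -0.159 and -0.305. The medians before 6 h moved with single libraries. Without 0.5 hpd replicate 1 the median at 0.5 hpd was 0.009. Without NT replicate 2 it was -0.007, -0.058 and -0.069 at 0.5, 1 and 2 hpd, and without NT replicate 1 it was -0.108, -0.157 and -0.279. Without a 2 hpd library it was -0.108 (replicate 1) or -0.274 (replicate 2) at 2 hpd, and without 0.5 hpd replicate 2 it was -0.125 at 0.5 hpd. In 10 of the 14, the TU contained at least 1 annotated snoRNA, with 8 in Snhg1. By edgeR no Snhg TU was called before 6 hpd (0, 1 and 5 had an unadjusted p under 0.05 at 0.5, 1 and 2 hpd, and DESeq2 called none), but 4 were called lower after 2 h with total counts.

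Snhg7, which holds Snora43 and Snora17, fell from 202 and 223 CPM in NT to 158 and 148 after 6 h, with 177 and 182 after 1 h (log2 fold change after 6 h -0.47 ± 0.10, adjusted p = 0.0056). Snhg17 went from 178 and 182 to 131 and 127 CPM (-0.48 ± 0.11, adjusted p = 0.0057). Snhg20 went from 69.0 and 84.3 to 54.0 and 51.5 CPM (-0.54 ± 0.15, adjusted p = 0.026). In all of these the 6 hpd libraries lay below both NT libraries. Snhg15 went from 207 and 253 to 170 and 175 CPM (-0.41 ± 0.12, adjusted p = 0.027), Snhg12 from 75.5 and 74.7 to 56.5 and 55.7 (-0.42 ± 0.12, adjusted p = 0.026) and Snhg5 from 277 and 292 to 235 and 223 (-0.31 ± 0.099, adjusted p = 0.044). Snhg1, the most transcribed by CPM, measured 691 and 743 CPM in NT and 705 and 630 after 6 h, groups that overlapped (-0.10 ± 0.11, adjusted p = 0.55). Snhg7, Snhg17, Snhg20, Snhg15, Snhg12 and Snhg5 were all lost as calls without NT replicate 2 or without 6 hpd replicate 2, where the median of the 14 was -0.247 and -0.262. Without 6 hpd replicate 1 the median was -0.313, and the calls of Snhg20, Snhg15, Snhg12 and Snhg5 were lost (-0.56, -0.38, -0.42 and -0.34). Snhg12 and Snhg5 were also lost without NT replicate 1 (-0.40 and -0.33), and Snhg5 without either 1 hpd library (-0.31), with RLE factors (-0.28), without the filter (-0.29) and in DESeq2 (-0.28).

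Snhg11 was the only Snhg TU called higher. It measured 6.39 and 6.32 CPM in NT, 5.81 and 5.73 after 0.5 h, 7.28 and 5.64 after 1 h, 7.89 and 7.48 after 2 h, and 10.7 and 10.5 after 6 h. Both libraries of 2 and of 6 hpd lay above NT, and the earlier groups overlapped it or lay below it. The log2 fold change after 6 h was 0.73 ± 0.17 (adjusted p = 0.0083), and 6 against 1 hpd differed by 0.71 ± 0.17 (adjusted p = 0.021). It was also the least transcribed per kb of the Snhg TUs, at 0.578 ± 0.0046 CPM per kb.

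**Figure D3:**
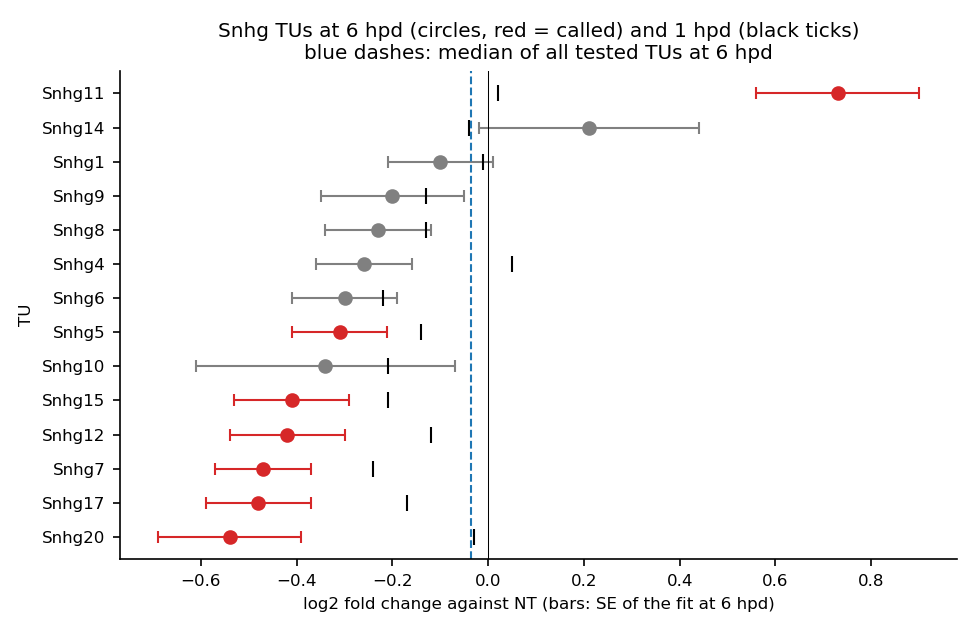
Log2 fold change against NT (x axis) of the 14 Snhg TUs (y axis) after 6 h, as circles with the SE of the fit, red where called, and after 1 h as black ticks. The blue dashes are the median of all tested TUs after 6 h (-0.036). Of 14 circles, 12 lie below 0, with Snhg20 lowest and Snhg11 highest.

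Mature miRNAs within the called Mir host TUs are shown, 1 arm of each hairpin, because they say which regulators each precursor encodes. The other arms are not printed. Of 12 miRNA genes inside the Mir host TUs, 10 had a mature sequence in RefSeq (GRCm38.p6), and Mir124a-1 and Mir3078, in Mir124a-1hg, had none. Seeds are in capitals. The TU of Mir17hg (the miR-17-92 cluster, known to promote proliferation) contained 11 mature sequences with 9 seeds. Among the 6 arms shown there are 4 seeds, with miR-17-5p and miR-20a-5p sharing one, miR-19a-3p and miR-19b-3p another, and miR-18a-5p and miR-92a-3p each their own.
miR-17-5p: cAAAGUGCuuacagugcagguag
miR-20a-5p: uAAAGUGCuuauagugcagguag
miR-18a-5p: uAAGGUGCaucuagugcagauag
miR-19a-3p: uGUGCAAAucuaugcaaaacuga
miR-19b-3p: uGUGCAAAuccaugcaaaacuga
miR-92a-3p: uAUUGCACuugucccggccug
The TU of Mirc35hg held miR-183, miR-96 and miR-182, which are known from sensory organs. The arms shown have 3 different seeds, and all 6 arms have 6. The TU of Mir22hg held miR-22 and also the Tlcd2 gene.
miR-183-5p: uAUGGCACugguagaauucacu
miR-96-5p: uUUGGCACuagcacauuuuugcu
miR-182-5p: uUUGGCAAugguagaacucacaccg
miR-22-3p: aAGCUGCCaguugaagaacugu

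Mir17hg was the only Mir host TU called lower. It measured 201 and 184 CPM in NT, 179 and 161 after 0.5 h, 166 and 146 after 1 h, 119 and 107 after 2 h, and 109 and 111 after 6 h. All depleted libraries lay below NT, and those of 2 and 6 hpd lay below those of 1 hpd. Against NT this was a log2 fold change of -0.30 ± 0.11 after 1 h (adjusted p = 0.13, not called), -0.77 ± 0.11 after 2 h (adjusted p = 0.00027) and -0.81 ± 0.11 after 6 h (adjusted p = 0.00012). The difference between 6 and 1 hpd was -0.51 ± 0.11 (adjusted p = 0.013). This TU is the precursor of the 6 miRNAs shown first above. Mature miRNAs were not measured.

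Mir124a-1hg, the host of a miR-124 gene known from neurons, rose from 0.5 hpd on. It measured 30.1 and 25.7 CPM in NT, 47.1 and 50.1 after 0.5 h, 49.4 and 51.1 after 1 h, 40.6 and 42.6 after 2 h, and 44.8 and 41.0 after 6 h. Every depleted library lay above both NT libraries. On the log2 scale the change from NT was 0.80 ± 0.11 after 0.5 h (adjusted p = 0.0017) and 0.62 ± 0.11 after 6 h (adjusted p = 0.0016). Only the call after 2 h was lost when a library was left out (0.47 without NT replicate 2).

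Mir22hg rose from 1 hpd on. It measured 23.6 and 17 CPM in NT, 30.9 and 31.0 after 0.5 h, 39.6 and 33.0 after 1 h, 35.0 and 36.4 after 2 h, and 43.9 and 40.4 after 6 h. Again no depleted library overlapped NT. The log2 fold change was 0.60 ± 0.15 after 0.5 h (adjusted p = 0.058, not called), 0.83 ± 0.14 after 1 h (adjusted p = 0.0024) and 1.05 ± 0.14 after 6 h (adjusted p = 0.00015). The 1 hpd call was lost without 1 hpd replicate 1 (0.70).

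Mirc35hg measured 85.8 and 85.7 CPM in NT, 105 and 126 after 0.5 h, 115 and 122 after 1 h, 102 and 130 after 2 h, and 118 and 122 after 6 h. All depleted libraries lay above NT. Its change on the log2 scale was between 0.43 and 0.49 at the 4 times, and passed the test at 1, 2 and 6 hpd (adjusted p = 0.038, 0.039 and 0.016). Leaving out 1 library of either group compared ended each of these calls, except that of 2 hpd without 2 hpd replicate 1, with values from 0.24 to 0.52, and 1 library of another group ended those of 1 and 2 hpd in some cases. Scaling by total counts also ended all 3 (0.38, 0.33 and 0.40). Mir670hg and Mir9-3hg were not called. Mir670hg, at 13.3 and 11.8 CPM in NT, had a log2 fold change of 0.14 ± 0.15 after 6 h (adjusted p = 0.55), with a TU that contained no miRNA, and Mir9-3hg had -0.49 ± 0.22 (adjusted p = 0.15).

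**Figure D4:**
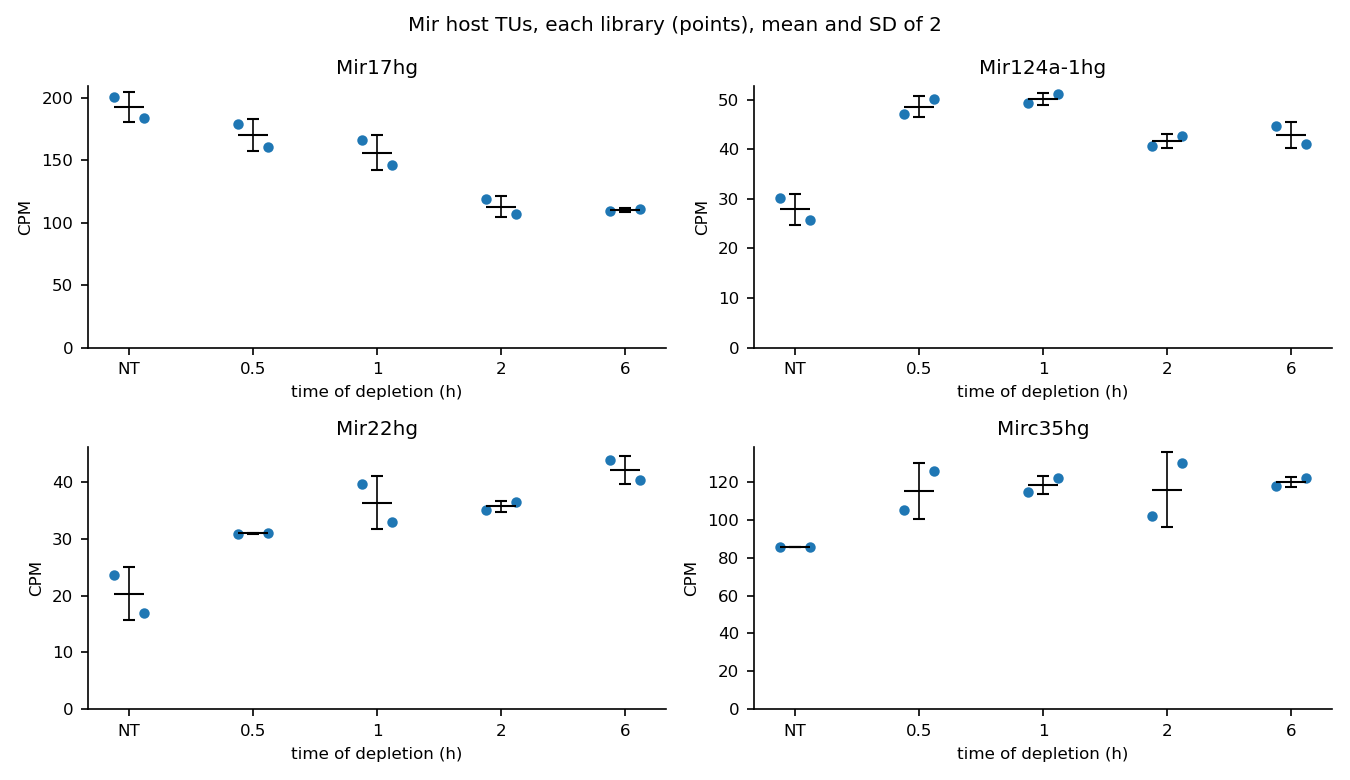
CPM (y axis, from 0) in each of the 2 libraries per group (points), with the group mean and SD (black), for the 4 called Mir host TUs over the time of depletion (x axis). Mir17hg declines to 109 and 111 CPM after 6 h, and in the other 3 panels every depleted library lies above both NT libraries.

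The single Linc TU, Lincred1, was nearly silent. It had 3 and 5 fragments in NT, 22 and 10 after 0.5 h, 15 and 22 after 1 h, 11 and 6 after 2 h, and 3 and 3 after 6 h. Neither the NT nor the 6 hpd libraries were above the filter, so that Lincred1 was tested only through libraries in which it was high. Its log2 change of 1.95 ± 0.49 after 1 h and the difference of -2.48 ± 0.52 between 6 and 1 hpd are therefore given as descriptions, although both are among the calls counted above and below. The 1 hpd call was lost without any of the NT or 1 hpd libraries (1.60 to 2.43). DESeq2 gave it no adjusted p there (log2 fold change 2.00). Its start window was 100% soft-masked and resembled those of 271 other tested TUs, of which 3 were called lower and 11 higher after 0.5 h, 11 lower and 13 higher after 1 h, and 83 lower and 8 higher after 6 h. Of all tested TUs, 0.787% and 0.527%, 3.61% and 2.15%, and 9.20% and 6.61% were called in these directions.

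The os TUs were set beside their partner genes. Of 66, 58 had a tested partner. In 26, the os TU and its partner started within 5 kb of each other on opposite strands, in 25 they otherwise overlapped, in 8 they lay apart, and 7 had no partner TU. Alignments were split by strand by the authors, so overlapping pairs were counted apart. At 6 hpd, 10 os TUs and 17 partners of the 58 pairs were called, and in 5 pairs both were, all in the same direction. Of all tested TUs, 9.20% were lower and 6.61% higher, and of tested TUs with 1 gene 7.73% and 10.4%. At 2 hpd, where 5.57% of all TUs were lower and 4.26% higher, both were called in 4 pairs, 3 in the same direction and 1 (Rsf1os1 and Rsf1) in opposite directions. Whether the calls of partner genes are kept when a library is left out is not given.

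Srrm4os fell stepwise while the gene it overlaps changed late. It measured 54.8 and 51.9 CPM in NT, 43.4 and 40.8 after 0.5 h, 23.5 and 25.5 after 1 h, 14.8 and 16.5 after 2 h, and 11.5 and 9.55 after 6 h. No 2 of these groups overlapped. Against NT this was a log2 fold change of -0.34 ± 0.11 after 0.5 h (adjusted p = 0.23, not called), -1.12 ± 0.12 after 1 h (adjusted p = 4e-05) and -2.34 ± 0.13 after 6 h (adjusted p = 3.5e-08). It was called lower after 1 than after 0.5 h (-0.78 ± 0.12, adjusted p = 0.016), after 2 than after 1 h (-0.65 ± 0.12, adjusted p = 0.047) and after 6 than after 1 h (-1.22 ± 0.13, adjusted p = 6.1e-05). Srrm4, a regulator of neural splicing that shares 43222 bases with it, measured 7.61 and 6.10 CPM in NT and 6.15 and 5.92 after 1 h, and was called after 6 h only, at 4.50 and 3.79 CPM (-0.73 ± 0.20, adjusted p = 0.019).

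Rsf1os1 lies wholly within Rsf1, which encodes a chromatin remodelling factor. Rsf1os1 measured 19.3 and 17.4 CPM in NT, 8.20 and 6.76 after 0.5 h, 3.20 and 3.87 after 1 h, 3.29 and 4.21 after 2 h, and 4.85 and 4.43 after 6 h. All depleted libraries lay below NT, and the lowest were those of 1 and 2 hpd. On the log2 scale the change from NT was -1.27 ± 0.17 after 0.5 h (adjusted p = 0.0014), -2.37 ± 0.19 after 1 h (adjusted p = 3.9e-06) and -1.98 ± 0.18 after 6 h (adjusted p = 3.7e-06). It was lower after 1 than after 0.5 h, by -1.09 ± 0.20 (adjusted p = 0.047). Rsf1 measured 379 and 384 CPM in NT and 579 and 454 after 2 h, where it was called higher (0.44 ± 0.12, adjusted p = 0.037). Its log2 fold changes at 1 and 6 hpd, 0.37 and 0.38, were not called. As shown above, the start of Rsf1os1 resembles that of Platr11.

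Comparisons between time points called few lncRNA TUs. Between 1 and 0.5 hpd these were Platr11, Srrm4os and Rsf1os1, all lower, beside 0.109% of all TUs called. Between 2 and 1 hpd it was Srrm4os, beside 0.218%. Between 6 and 2 hpd edgeR called none, beside 0.777% (11 had an unadjusted p under 0.05, and DESeq2 called 1). Between 6 and 1 hpd, 5 were lower (Platr11, Mir17hg, Lincred1, Srrm4os and Kirrel3os) and 2 higher (Snhg11 and Kcnd3os), beside 4.88%. A fit of only the libraries compared gave 14 calls there, and a fit with the replicate number as a block gave 16. Leaving out any 1 library of either group ended the 3 calls between 1 and 0.5 hpd and gave 2 to 4 calls between 6 and 1 hpd. Between 1 and 0.5 hpd, 1 call was left without either NT or either 6 hpd library. The call between 2 and 1 hpd was lost without any library but 0.5 hpd replicate 2.

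In some pairs both strands were called in the same direction. Kcnd3os and Kcnd3, which encodes a potassium channel, start 1078 bases apart. Kcnd3os measured 1.08 and 1.24 CPM in NT, 1.44 and 2.31 after 0.5 h, 1.76 and 1.65 after 1 h, 2.33 and 2.92 after 2 h, and 4.07 and 3.55 after 6 h. All depleted libraries lay above NT, with a log2 fold change of 1.71 ± 0.30 after 6 h (adjusted p = 0.0012). It was higher after 6 than after 1 h by 1.16 ± 0.28 (adjusted p = 0.024). Kcnd3 measured 26.1 and 32.0 CPM in NT and 79.0 and 96.8 after 6 h (1.60 ± 0.16, adjusted p = 7.6e-06). The Kcnd3os call after 2 h (1.17 ± 0.31, adjusted p = 0.025) was lost without NT replicate 1 (1.08), NT replicate 2 (1.28) or 2 hpd replicate 2 (0.99), under total counts (1.06) and in DESeq2 (1.21).

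Nphs1os and Nphs1, the gene of the kidney protein nephrin, both fell. Nphs1os measured 13.9 and 10.6 CPM in NT, 8.94 and 7.95 after 0.5 h, 6.65 and 5.52 after 1 h, 6.57 and 6.66 after 2 h, and 6.95 and 4.48 after 6 h. Its change on the log2 scale was -1.01 ± 0.21 after 1 h (adjusted p = 0.0079) and -1.11 ± 0.21 after 6 h (adjusted p = 0.0022), with no overlap with NT. Nphs1 went from 80.9 and 54.2 CPM in NT to 31.7 and 19.2 after 6 h (-1.42 ± 0.25, adjusted p = 0.0012). The Nphs1os calls at 1 and 2 hpd were lost without NT replicate 1 (-0.79 and -0.68), and also without 1 hpd replicate 2 (-0.88) or 2 hpd replicate 1 (-0.88), respectively.

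Map2k3os went from 18 and 15.2 CPM in NT to 10.3 and 10.2 after 2 h (-0.69 ± 0.16, adjusted p = 0.0099) and 11.7 and 9.49 after 6 h (-0.66 ± 0.16, adjusted p = 0.010). Map2k3, a kinase upstream of p38, fell after 2 h (-0.38 ± 0.11, adjusted p = 0.034). The Map2k3os calls were lost without NT replicate 1 (-0.57 and -0.51), 2 hpd replicate 1 (-0.70) or 6 hpd replicate 2 (-0.51). Kirrel3os went from 15.0 and 20 CPM in NT to 7.09 and 10.9 after 6 h (-0.94 ± 0.23, adjusted p = 0.011), with 13.8 and 20.5 after 1 h. It was lower after 6 than after 1 h by -0.92 ± 0.22 (adjusted p = 0.028), and its 6 hpd call was lost without NT replicate 2 (-0.70) or 6 hpd replicate 1 (-0.66). The Kirrel3 TU on the other strand had 17 fragments in NT and 2 after 6 h, a ratio of 0.107 (95% exact counting interval 0.0120 to 0.452).

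For Etaa1os and Appbp2os the partner gene was not called. Etaa1os starts 362 bases from Etaa1, a gene of the replication stress response. It measured 3.16 and 4.14 CPM in NT, 1.76 and 1.88 after 0.5 h, 1.63 and 1.65 after 1 h, 1.77 and 2.05 after 2 h, and 1.76 and 2.04 after 6 h. All depleted libraries lay below NT, and the call passed at 1, 2 and 6 hpd (log2 fold change -1.15, -0.94 and -0.93, adjusted p = 0.015, 0.028 and 0.023). Etaa1 had 100 and 96.4 CPM in NT and -0.21 ± 0.13 after 1 h (adjusted p = 0.42). Appbp2os measured 23.4 and 20.8 CPM in NT, 16.2 and 13.9 after 1 h and 14.7 and 15.4 after 2 h, with log2 fold changes of -0.55 ± 0.14 and -0.56 ± 0.14 (adjusted p = 0.029 and 0.019). Appbp2 had 0.19 ± 0.13 and 0.22 ± 0.13. All 3 Etaa1os calls were lost without NT replicate 2 (-0.92, -0.73 and -0.71) and in DESeq2 (-1.12, -0.91 and -0.91). They were also lost without either 1 hpd library (-1.14 and -1.16), without 2 hpd replicate 1 (-0.83) and without either 6 hpd library (-0.82 and -1.05). The Appbp2os calls were lost without NT replicate 1 (-0.45 and -0.47) or 2 hpd replicate 1 (-0.52), and the one after 1 h also without the other NT library (-0.61), either 1 hpd library (-0.67 and -0.44) or the first 6 hpd library (-0.53), and in DESeq2 (-0.53).

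Rab26os had the highest level per kb of the os TUs, 19.3 ± 2.2 CPM per kb in NT, and contained a snoRNA. It went from 101 and 119 CPM in NT to 80.8 and 82.3 after 6 h (-0.43 ± 0.12, adjusted p = 0.029), while Rab26 on the other strand, a small GTPase, went from 5.52 and 5.16 to 4.99 and 4.72 (-0.14 ± 0.20, adjusted p = 0.68). The Rab26os call was lost without the second NT library (-0.29) or either 6 hpd library (-0.40 and -0.44). Uchl1os, the next by level per kb, was a TU of 0.318 kb with 8 to 29 fragments that covered 0.6% of its annotated transcript, and was not called (-0.95 ± 0.40 after 6 h, adjusted p = 0.12).

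The other 2 called os TUs, named after their values were seen, were Tspan2os and Vax2os, which lie apart from their partners. Tspan2os went from 2.02 and 2.54 CPM in NT to 0.351 and 0.757 after 6 h (-1.98 ± 0.51, adjusted p = 0.015), and Tspan2, a tetraspanin, from 8.75 and 10.6 to 3.93 and 4.78 (-1.14 ± 0.20, adjusted p = 0.0013). Vax2os had 16 and 14 fragments in NT and 2 and 0 after 6 h, a ratio of 0.0608 (95% exact counting interval 0.00704 to 0.240), with an adjusted p of 0.014 in edgeR. Vax2, a homeobox gene, had a log2 fold change of -0.48 ± 0.34 (adjusted p = 0.37). The Tspan2os call was lost without NT replicate 2 (-1.79) or 6 hpd replicate 1 (-1.57), and that of Vax2os without NT replicate 2 (-3.91) or 6 hpd replicate 2 (-2.83).

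**Figure D5:**
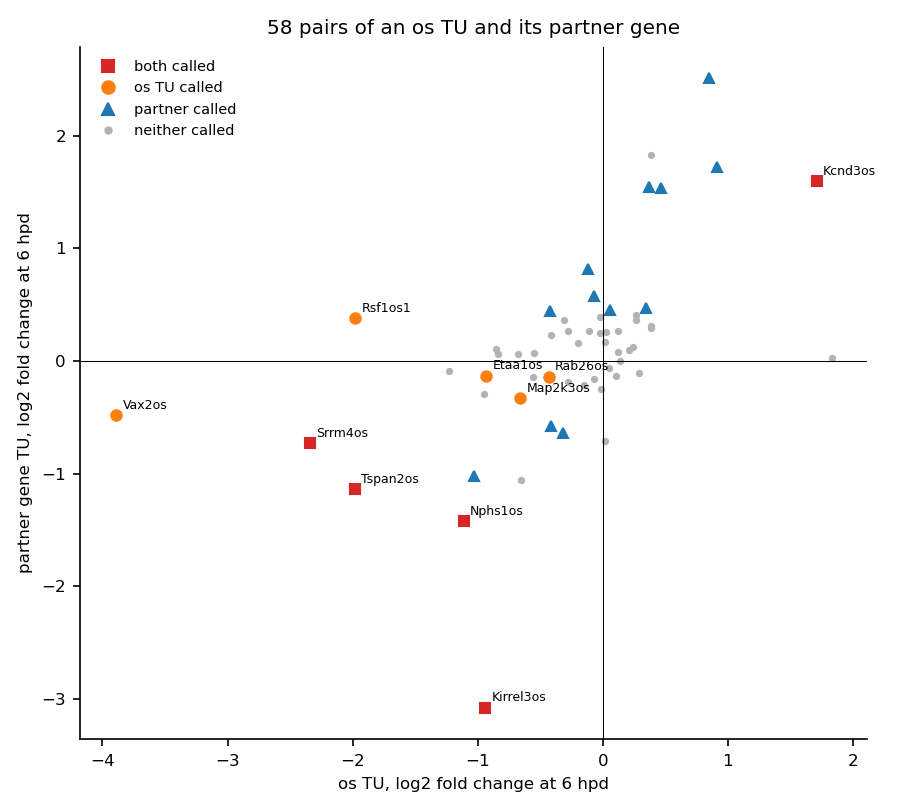
Log2 fold change after 6 h of each os TU (x axis) and of its partner gene (y axis) for the 58 pairs in which both were tested. Red squares are pairs with both called, orange circles those with the os TU alone, blue triangles those with the partner alone and grey points the rest. The 5 red squares have the same sign on both axes, and Rsf1os1 stands at -1.98 with its partner at 0.38.

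Most called partners had an os TU that was not called. Jun, a transcription factor, rose by 1.72 ± 0.41 after 6 h (log2, adjusted p = 0.0096) with Junos at 0.91 (not called). Csmd2 rose by 2.51 after 6 h with Csmd2os at 0.85 (not called), and Plet1 rose by 1.55 with Plet1os at 0.37 (not called). Otx2, a homeobox factor of the transition from naive pluripotency, fell at all 4 times (-0.94, -1.07, -1.15 and -1.02), with Otx2os1 at -0.57, -1.02, -0.80 and -1.03 (not called). Over the 58 pairs, 30, 30, 33 and 38 had the same sign at 0.5, 1, 2 and 6 hpd. Where the partner alone was called, 1, 5, 6 and 9 pairs had the same sign and 0, 0, 4 and 3 opposite signs. At 6 hpd Kank4 rose by 0.44 with Kank4os at -0.42, Lpp by 0.82 with Lppos at -0.12 and Mkln1 by 0.58 with Mkln1os at -0.07, and at 2 hpd Plet1 rose by 1.01 with Plet1os at -0.20. At 2 hpd Lyrm7 fell by 0.64 with Lyrm7os at 0.15, and Lrp8 rose by 0.68 with Lrp8os2 at -0.13 (no os TU of these called). All these pairs were named after their values were seen.

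The 19 protein-coding genes caught by the os ending were Toporsos, Zbtb8os, Mos, Minos1, Nos1, Mios, Crxos, Uros, Nanos3, Slc7a6os, Ccpg1os, Fos, Sos2, Pros1, Nrros, Cebpzos, Sos1, Mocos and Nanos1. Among them 0, 0, 1 and 2 were called lower and 0, 2, 2 and 2 higher at 0.5, 1, 2 and 6 hpd. Of all TUs, 0.787%, 3.61%, 5.57% and 9.20% were lower and 0.527%, 2.15%, 4.26% and 6.61% higher. Sos1 and Sos2, which activate RAS, were both higher after 6 h (log2 fold change 0.51 and 0.86). Nos1, a nitric oxide synthase, and Nanos3, a germ cell gene, were lower (-0.63 and -0.55). The Nanos3 TU began upstream of the annotated gene, held Mir181c and Mir181d, and had only 6.9% of its length in the Nanos3 transcript, so its value may not be that of Nanos3.

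Other named lncRNA genes outside the symbol patterns were counted from a list of 32, of which 20 were tested. At 0.5, 1, 2 and 6 hpd, 0, 1, 0 and 2 of them were called lower (0.787%, 3.61%, 5.57% and 9.20% of all TUs) and 1, 2, 4 and 2 higher (0.527%, 2.15%, 4.26% and 6.61% of all TUs). Neat1, the scaffold of paraspeckles, rose at 0.5, 1 and 2 hpd (0.65, 0.93 and 0.83). Malat1, a nuclear speckle RNA, rose at 1, 2 and 6 hpd (0.51, 0.55 and 0.55). Gas5 and Zfas1 had log2 fold changes of -0.17 and -0.29 after 6 h and were not called, and Dancr was lower (-0.38).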

How the data were processed

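TT_chem-seq libraries of 5 groups, 10 in all, were analysed. Per the labels and the study's methods, reads were mapped by the authors on mm10 (BWA 0.7.17-r1188, SAMtools 1.10, Picard 2.12.0). They split alignments by strand and defined TUs on pooled data with a 2-state hidden Markov model before associating them with RefSeq genes. Each deposited value is the count of fragments that 1 library had in 1 TU, not normalized. Libraries held 11131490 to 25854106 fragments, and intervals cover counting error only.

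The filter required over 10 fragments in 2 or more libraries. The test was that of edgeR 4.0.16 (R 4.3.3, TMM factors, quasi-likelihood test, 1 coefficient per group, all 10 libraries) with Benjamini-Hochberg adjustment over 28459 TUs. The SE is the log2 fold change over the square root of F. CPM used TMM factors. DESeq2 1.42.0, other scalings and filters, a replicate block and each library left out were alternatives. Of the 120 tested symbols, 118 matched RefSeq (GRCm38.p6), from which sequences were taken. Windows were compared with blastn (e-value at most 1e-10, at least 100 aligned bases).

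The members, lists and tests were chosen with earlier results of these data known. Named genes were, in each group, up to 8 called TUs in order of the joint-test p and the 2 TUs with the highest NT level per kb, with the partner of each named os TU.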

Additional observations from a re-analysis of the deposited data

Results flagged for a closer look

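The change from 1 to 6 hpd, tested directly in edgeR, passed the adjusted threshold for 7 of the 101 lncRNA TUs, where 4.88% of all tested TUs were called. The log2 difference of the effect at 6 hpd from that at 1 hpd was -2.48 for Lincred1, -1.77 for Platr11, -1.22 for Srrm4os, -0.92 for Kirrel3os and -0.51 for Mir17hg. It was 1.16 for Kcnd3os and 0.71 for Snhg11. Lincred1 had at most 22 fragments per library and passed the filter only through libraries in which it was high, so that its value is a description. Both effects share the NT libraries, which do not enter the difference.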

How the results depend on the processing

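Of 63 calls of the named lncRNA TUs against NT, 30 were kept under every alternative that tested them (51 of the 63 were tested with a mean of at least 50 fragments), 33 were lost under at least 1 and 0 changed direction. Replicate numbers were not taken to pair the libraries, because the correlation of same-numbered deviations lay between 0.0742 and 0.291 and not above 0.1 for every pair of groups. As a hint from the data only, it was positive for every pair. With the replicate block, 9 were lower and 5 higher at 0.5 hpd, 7 higher at 1 hpd and 8 higher at 6 hpd, and 5, 2, 2 and 16 were called between 1 and 0.5, 2 and 1, 6 and 2, and 6 and 1 hpd. All 63 calls were kept with it, and 2 Snhg TUs were lower at 2 hpd. Among os TUs it gave 4, 6, 9 and 15 lower and 1, 2, 2 and 4 higher at 0.5, 1, 2 and 6 hpd. It also gave 5 lower Platr and 3 higher Mir host TUs at 0.5 hpd, and 1 higher Platr TU at 1 hpd. With a mean of at least 50 fragments, 2 were higher at 1 hpd, 2 at 2 hpd, and 1 was called between 6 and 2 hpd. With total counts, 2 were higher at 2 hpd, and the median of all TUs moved to -0.155 there. RLE factors, no filter and only the libraries compared each gave 0 calls between 2 and 1 hpd, and the last gave 14 between 6 and 1 hpd. DESeq2 gave 1 between 6 and 2 hpd. The share of all TUs called under each alternative is not given. The cause of these differences was not tested.

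Leaving out 1 library at a time gave 2 to 4, 6 to 10, 8 to 14 and 10 to 23 lower TUs and 1 to 4, 1 to 4, 1 to 5 and 4 to 5 higher TUs at 0.5, 1, 2 and 6 hpd. The joint test gave 15 to 26. Between time points it gave 0 to 3 (1 and 0.5 hpd), 0 to 1 (2 and 1 hpd), 0 to 0 (6 and 2 hpd) and 2 to 9 (6 and 1 hpd). Without NT replicate 2, 25 of the 63 calls were lost. Levels per kb moved with RefSeq gene lengths, to 222 for Rab26os, 252 for Snhg1 and 0.0223 for Uchl1os. Depth was low for 37 of 66 os TUs, which held under 50 fragments on average.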
